A study of Vitis labrusca x Vitis vinifera with 9 samples.

Results

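The enzymes described here are those of glycolysis, fermentation and the tricarboxylic acid (TCA) cycle in grapevine buds, 36 genes of the 30128 with a probe on the array. They were found by words in the description of each gene's Arabidopsis homolog, such as enolase or malate dehydrogenase, and 9 of the 16 words used had a match. Hexokinase, phosphofructokinase, triosephosphate isomerase, glyceraldehyde, pyruvate dehydrogenase, citrate synthase and succinate dehydrogenase matched 0 probes. Since 6981 probes (23.2%) carried a description, further genes of these routes may have been missed, and those steps were not assessed. Of the 36 genes, 35 were measured well enough to be tested. By enzyme name, 19 were grouped under glycolysis, 4 under fermentation and 7 under the TCA cycle. The other 5 hold one of the words in their description but name another reaction. Since the groups follow the name, some of their entries may act outside the route or in another compartment. The remaining gene, the alcohol dehydrogenase GSVIVT00015543001, was well above background on 1 of 9 arrays in either channel and was left out. Genes are given by their identifiers from an early grapevine genome annotation, with 1 probe per gene. Their chromosome positions were not used here.

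Buds came from the 8th node of canes of 5-year-old Kyoho plants, a cross of Vitis labrusca and Vitis vinifera, and were taken 24 h after treatment. P buds sat on pruned canes and received water. HC buds received 1% hydrogen cyanamide, a chemical that breaks bud dormancy, and PHC buds sat on pruned canes and received the same spray. Control buds received water on unpruned canes, and 1 sample held the buds of 10 single nodes. The sample labels call the HC canes pruned whereas the methods state that they were not, so whether the HC groups differ from P by pruning rests on the methods. Each treatment had 3 arrays, with treated RNA in Cy5 and control RNA in Cy3 on all 9, so a dye effect of a probe stays in its ratio to the control but cancels in a difference between treatments.

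Glycolysis splits a hexose into molecules of pyruvate and yields ATP and NADH. When oxygen is short, pyruvate decarboxylase and alcohol dehydrogenase turn pyruvate into ethanol and recover NAD+, and when oxygen is present the TCA cycle oxidizes it in the mitochondrion. Plant cells also hold plastid copies of many glycolytic enzymes, some of which serve the Calvin cycle. Hydrogen cyanamide is commonly discussed as a compound that disturbs respiration, and buds that leave dormancy must feed growing tissue from stored carbon.

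The value of each probe was the log2 ratio of treated to control signal, so 1 stands for a doubling. A gene was called when the adjusted p was under 0.05 and the change at least 2-fold, and only called genes are said to have risen or fallen. After PHC, 14 of the 35 enzymes rose and 4 fell, where 13.5% of all tested probes rose and 11.7% fell. After HC, 5 rose and 0 fell, with 5.16% and 4.75% over all probes, and after P, 1 rose and 0 fell, with 2.75% and 0.572%. The share of these enzymes that rose after PHC was 40%, and the share that fell, 11.4%, lay near that of all probes. At an unadjusted p from limma under 0.05, with no limit on the fold, 2 enzymes were lower after P and 6 after HC, in place of the 0 called, where 14.4% and 25.2% of all probes were. With normexp background correction and median centring of each array, in place of the background subtraction and dye normalization of the files, 20 rose and 0 fell after PHC, and 20.8% and 2.83% of all probes did. This setting is called median centring hereafter, and normexp followed by loess is the other one that changes both steps. The enzymes had median log2 ratios of 0.26 (P), 0.32 (HC) and 0.86 (PHC), where that of all probes was −0.03, −0.03 and −0.07. By array the median of the enzymes was 0.30, 0.31 and 0.28 after P, 0.27, 0.36 and 0.25 after HC, and 0.92, 0.75 and 1.00 after PHC, so the PHC arrays lay above all others. The set includes 14 genes that changed after PHC only, 4 that changed after both HC and PHC, 1 that changed after HC only and 16 that changed after none. Fewer cells of a type and less RNA per cell cannot be told apart in such whole buds.

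**Figure D1:**
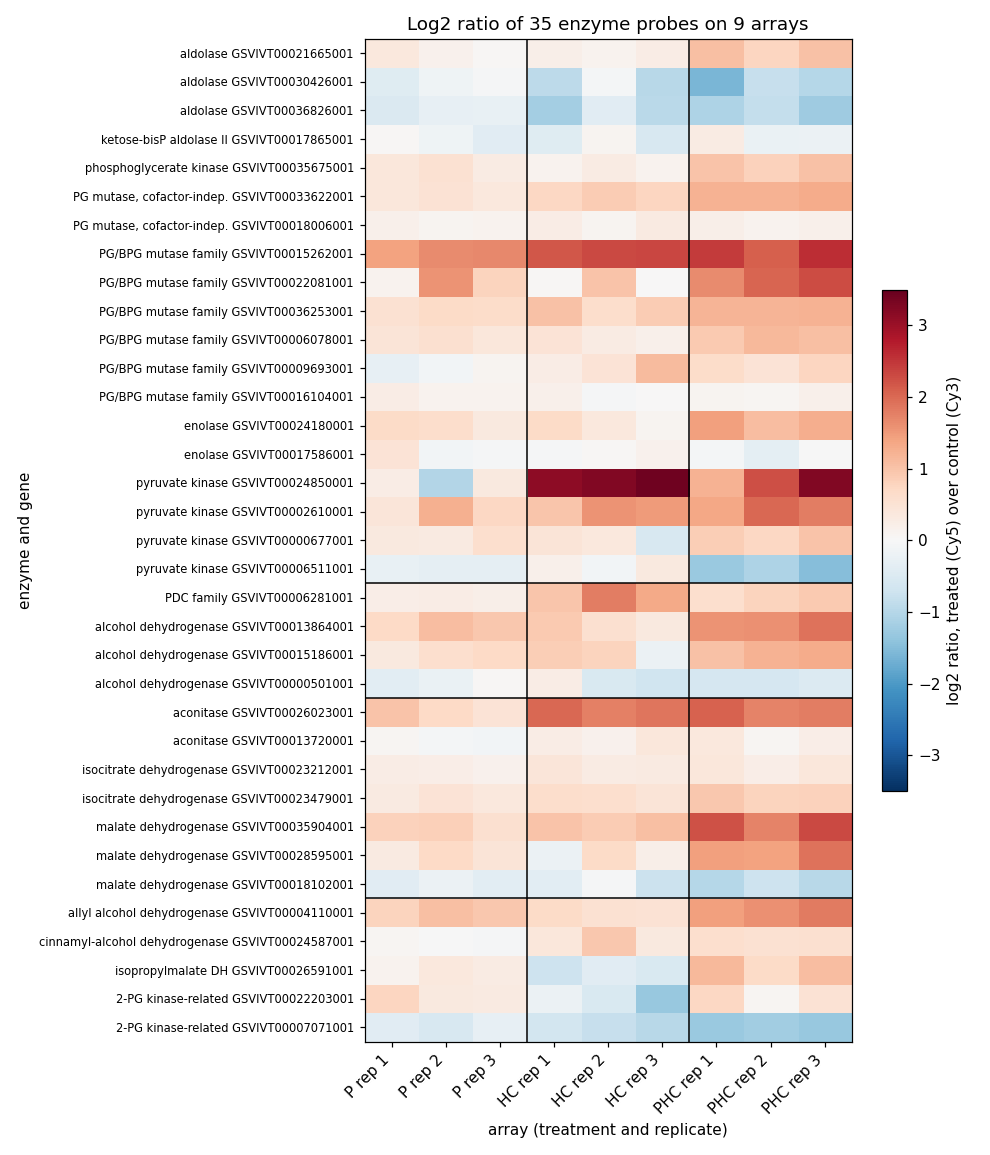
Log2 ratio of treated over control signal of the 35 tested enzymes (rows, in the order of the routes, with lines between glycolysis, fermentation, the TCA cycle and genes matched by wording) on the 9 arrays (columns, 3 per treatment). Red cells are higher and blue cells lower than the control, and the PHC columns hold the most strongly coloured rows, with 14 enzymes called higher and 4 called lower.

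Signal differed in brightness between the treatments. The median control signal was 424.6 to 683.0 on the P arrays, 506.2 to 803.3 on the HC arrays and 901.5 to 1545 on the PHC arrays, so all PHC arrays were brighter than the others, and the part of this in the results was not tested. On single arrays 80.6 to 88.9% of probes (control channel) and 83.6 to 90.3% (treated channel) exceeded background, 0 spots were saturated, and 34 of the 35 enzymes were well above background in both channels on all 9 arrays. Over all probes, replicate arrays correlated least within HC (0.50 to 0.66), then within P (0.52 to 0.85), and most within PHC (0.82 to 0.92).

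At the aldolase step, which cleaves fructose 1,6-bisphosphate into 2 triose phosphates, the genes went in different directions. GSVIVT00030426001 had log2 ratios of −0.42, −0.15 and −0.05 on the P arrays, −0.92, −0.07 and −0.97 on the HC arrays and −1.61, −0.81 and −1.0 on the PHC arrays. It fell after PHC by 1.14 ± 0.41 (SD, n = 3; adjusted p = 0.00146), and HC replicate 2 was the only HC array that reached into the range of P. GSVIVT00036826001 had values of −0.50, −0.28 and −0.27 after P, −1.19, −0.39 and −0.94 after HC and −1.08, −0.83 and −1.24 after PHC. It fell after PHC by 1.05 ± 0.20 (adjusted p = 4.69e-04), and the HC arrays overlapped those of PHC. The Arabidopsis homologs of both genes are plastid aldolases. Both falls lay close to the 2-fold limit. The first was not called without PHC replicate 1 (−0.91), nor the second without PHC replicate 3 (−0.96), and with median centring the values were −0.31 and −0.41.

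The third aldolase, GSVIVT00021665001, whose Arabidopsis homolog is a cytosolic enzyme, went the other way. Its log2 ratios were 0.36, 0.15 and 0.03 after P, 0.19, 0.11 and 0.25 after HC and 1.05, 0.75 and 1.01 after PHC, so the PHC arrays lay above all 6 others. The PHC mean of 0.94 ± 0.17 passed the adjusted p (1.17e-04) but stayed under 2-fold. A class-II ketose-bisphosphate aldolase, GSVIVT00017865001, stayed near 0, with means of −0.17, −0.29 and −0.05 after P, HC and PHC.

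Phosphoglycerate kinase, the first step of glycolysis to yield ATP, was represented by GSVIVT00035675001. Its log2 ratios were 0.39, 0.53 and 0.28 after P, 0.12, 0.28 and 0.12 after HC and 1.00, 0.80 and 1.04 after PHC, and the PHC arrays again lay above the rest. The mean after PHC was 0.95 ± 0.13, with an adjusted p of 7.74e-05 and a change just under 2-fold. The Arabidopsis homolog of this gene is a plastid enzyme, so a plastid homolog did not go with a lower ratio here.

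Phosphoglycerate mutase, which moves the phosphate from carbon 3 to carbon 2 of glycerate, was the step with the most entries. Of the cofactor-independent mutases, the form that plant glycolysis is known to use, GSVIVT00033622001 had log2 ratios of 0.39, 0.51 and 0.36 after P, 0.73, 0.89 and 0.74 after HC and 1.21, 1.22 and 1.30 after PHC. The 3 treatments did not overlap, and the rise after PHC was 1.24 ± 0.05 (adjusted p = 1.37e-05). The second entry of this type, GSVIVT00018006001, whose description reads only mutase-related, stayed between 0.09 and 0.32 on all 9 arrays.

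The other 6 entries belong to the phosphoglycerate/bisphosphoglycerate mutase family, a broad group of enzymes with a common fold that also holds phosphatases, so the family name alone does not make them glycolytic. After PHC 4 of the 6 rose, where 13.5% of all probes did. GSVIVT00015262001 was the only enzyme of the whole set that rose after all 3 treatments, with log2 ratios of 1.42, 1.65 and 1.68 after P, 2.18, 2.32 and 2.33 after HC and 2.44, 2.10 and 2.57 after PHC. Its means were 1.58 ± 0.14, 2.28 ± 0.08 and 2.37 ± 0.24 (adjusted p = 0.00104, 8.25e-06 and 4.36e-06). The HC and PHC arrays overlapped, and the difference between them was 0.10 (95% interval −0.28 to 0.48).

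GSVIVT00022081001 had scattered values, 0.11, 1.56 and 0.77 after P, 0.03, 1.01 and 0.02 after HC and 1.65, 2.02 and 2.28 after PHC. Its control signal was low, 43.2 to 142.2 units. All PHC arrays lay above the others and the rise was 1.98 ± 0.32 (adjusted p = 3.64e-04). With normexp and loess the PHC value was 0.91 and with median centring 0.75, and it was not called with either. GSVIVT00036253001 rose by 1.20 ± 0.02 and GSVIVT00006078001 by 1.04 ± 0.11 after PHC (adjusted p = 2.47e-05 and 4.94e-05), the latter at the 2-fold limit and not called without PHC replicate 2 (0.99). The remaining pair, GSVIVT00009693001 and GSVIVT00016104001, had PHC means of 0.62 and 0.12.

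Enolase makes phosphoenolpyruvate from 2-phosphoglycerate, and its entries separated. GSVIVT00024180001, with a cytosolic homolog in Arabidopsis, had log2 ratios of 0.66, 0.60 and 0.34 after P, 0.68, 0.37 and 0.09 after HC and 1.44, 1.09 and 1.27 after PHC. It rose after PHC by 1.27 ± 0.17 (adjusted p = 7.57e-05), and the PHC arrays did not overlap the others. GSVIVT00017586001, with a plastid homolog, had means of 0.12, 0.05 and −0.14 after P, HC and PHC.

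Pyruvate kinase, which makes pyruvate and ATP from phosphoenolpyruvate, held the gene with the highest ratio after HC in the values of the files. GSVIVT00024850001 had log2 ratios of 0.25, −1.03 and 0.35 after P, 3.14, 3.23 and 3.39 after HC and 1.22, 2.27 and 3.23 after PHC. All HC arrays lay above the P arrays, and the PHC arrays were spread from far below the HC arrays up into their range. The means were −0.14 ± 0.77 after P, 3.25 ± 0.13 after HC (9.54-fold; adjusted p = 3.12e-04) and 2.24 ± 1.01 after PHC (4.73-fold; adjusted p = 7.53e-04). Control buds had little signal from this probe, 23.2 to 91.9 units of background-subtracted Cy3 intensity, and it was well above background in the control channel on 2 of the 3 HC arrays. Treated buds gave 204.2, 856.0 and 379.8 units on the HC arrays and 169.1, 353.7 and 864.3 on the PHC arrays. The size of the change depended on the processing: with normexp and loess it was 1.42 after HC, still called and then below those of GSVIVT00015262001 and GSVIVT00026023001, and 0.95 after PHC, not called. Which of the changed steps moved it was not tested.

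GSVIVT00002610001, a second pyruvate kinase, had log2 ratios of 0.41, 1.24 and 0.74 after P, 0.97, 1.57 and 1.48 after HC and 1.35, 2.01 and 1.79 after PHC. It rose after HC by 1.34 ± 0.32 and after PHC by 1.72 ± 0.34 (adjusted p = 0.00104 and 9.4e-05), and neighbouring treatments overlapped. GSVIVT00000677001 had a mean of 0.86 ± 0.14 after PHC and of 0.41 and 0.08 after P and HC.

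GSVIVT00006511001, described as a pyruvate kinase family protein, went against the other pyruvate kinases. Its log2 ratios were −0.26, −0.33 and −0.32 after P, 0.16, −0.10 and 0.33 after HC and −1.29, −1.09 and −1.48 after PHC, with no overlap among the treatments. It fell after PHC by 1.29 ± 0.20 (adjusted p = 3.43e-05), or 2.44-fold. With median centring the value was −0.62 and it was not called.

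**Figure D2:**
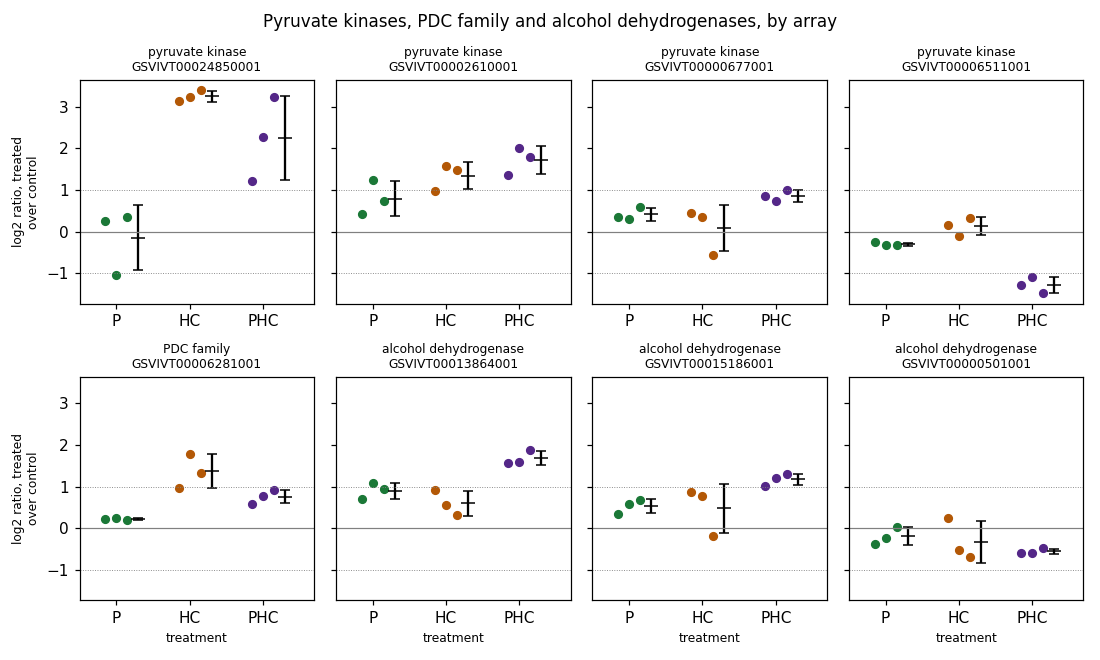
Log2 ratio of treated over control signal (vertical axes) by treatment for 4 pyruvate kinases, the gene of the pyruvate decarboxylase (PDC) family and 3 alcohol dehydrogenases. Points are single arrays, bars the mean ± SD of 3 arrays, and dotted lines mark 2-fold, and the top left panel shows the HC arrays of GSVIVT00024850001 at 3.14 to 3.39 above P arrays of −1.03 to 0.35.

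Fermentation was represented by 1 entry of the pyruvate decarboxylase family and 4 alcohol dehydrogenases. The former, GSVIVT00006281001, is matched to an Arabidopsis gene for 2-hydroxyacyl-CoA lyase, a thiamine-dependent relative of pyruvate decarboxylase, so its name need not stand for the ethanol route. Its log2 ratios were 0.22, 0.25 and 0.21 after P, 0.97, 1.79 and 1.34 after HC and 0.59, 0.77 and 0.92 after PHC. The arrays of the 3 treatments did not overlap and HC was the highest. It rose after HC by 1.37 ± 0.41 (2.58-fold; adjusted p = 2.76e-04), and after PHC the mean was 0.76 ± 0.16, under 2-fold.

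Alcohol dehydrogenases reduce aldehydes to alcohols, the last step of ethanol fermentation among other roles. None of the 4 has the classical hypoxia-induced alcohol dehydrogenase of Arabidopsis as its homolog. GSVIVT00013864001 had log2 ratios of 0.70, 1.08 and 0.94 after P, 0.92, 0.55 and 0.33 after HC and 1.58, 1.60 and 1.89 after PHC. It rose after PHC by 1.69 ± 0.17 (3.23-fold; adjusted p = 1.96e-05), and P and HC overlapped each other below the PHC arrays.

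GSVIVT00015186001 had values of 0.35, 0.59 and 0.69 after P, 0.87, 0.78 and −0.19 after HC and 1.02, 1.21 and 1.30 after PHC. It rose after PHC by 1.18 ± 0.14 (2.26-fold; adjusted p = 8.34e-04), and HC replicate 3 stood apart from the other HC arrays. The third, GSVIVT00000501001, had values of −0.37, −0.23 and 0.04 after P, 0.25, −0.53 and −0.69 after HC and −0.58, −0.59 and −0.48 after PHC, a PHC mean of −0.55 with an adjusted p of 0.024 and a change under 2-fold. Alcohol dehydrogenases therefore had ratios on either side of 0 after PHC.

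In the TCA cycle, aconitase isomerizes citrate to isocitrate. GSVIVT00026023001 had log2 ratios of 0.99, 0.69 and 0.47 after P, 2.02, 1.77 and 1.87 after HC and 2.06, 1.75 and 1.78 after PHC. HC and PHC covered nearly the same range and all their arrays lay above P. It rose by 1.88 ± 0.13 after HC and 1.86 ± 0.17 after PHC (3.69-fold and 3.64-fold; adjusted p = 2.69e-05 and 9.95e-06), and the P mean of 0.72 ± 0.26 passed the adjusted p (0.0103) under 2-fold. The other aconitase, GSVIVT00013720001, had means of −0.03, 0.27 and 0.22. The file describes both as cytoplasmic, although the Arabidopsis homolog of the first is known as a mitochondrial enzyme.

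Isocitrate dehydrogenase, which makes 2-oxoglutarate, had 2 entries and 0 calls. The NADP-dependent GSVIVT00023479001 had log2 ratios of 0.32, 0.48 and 0.38 after P, 0.61, 0.60 and 0.46 after HC and 0.95, 0.77 and 0.80 after PHC, with a PHC mean of 0.84 ± 0.10 (adjusted p = 1.04e-04) under 2-fold. The NAD-dependent GSVIVT00023212001, the form that works in the cycle, had means of 0.22, 0.34 and 0.34, and its difference between PHC and P was 0.12 (95% interval −0.18 to 0.42).

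Malate dehydrogenase interconverts malate and oxaloacetate, and its genes are described by compartment. The mitochondrial GSVIVT00035904001 had log2 ratios of 0.82, 0.84 and 0.57 after P, 0.99, 0.88 and 1.06 after HC and 2.22, 1.73 and 2.32 after PHC. The arrays of the 3 treatments did not overlap and it rose after PHC by 2.09 ± 0.32 (4.25-fold; adjusted p = 7.8e-06), while the HC mean of 0.98 lay just under 2-fold.

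The cytosolic GSVIVT00028595001 had values of 0.30, 0.69 and 0.46 after P, −0.20, 0.66 and 0.20 after HC and 1.43, 1.40 and 1.90 after PHC, and rose after PHC by 1.58 ± 0.28 (2.98-fold; adjusted p = 8.81e-05). Its P and HC arrays overlapped. The chloroplast NADP enzyme GSVIVT00018102001, which exports reducing power as malate, had values of −0.40, −0.19 and −0.37 after P, −0.37, −0.05 and −0.76 after HC and −1.0, −0.72 and −0.97 after PHC. Its PHC mean was −0.90 ± 0.15 (adjusted p = 6.33e-04), under 2-fold and opposite in sign to the other malate dehydrogenases.

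**Figure D3:**
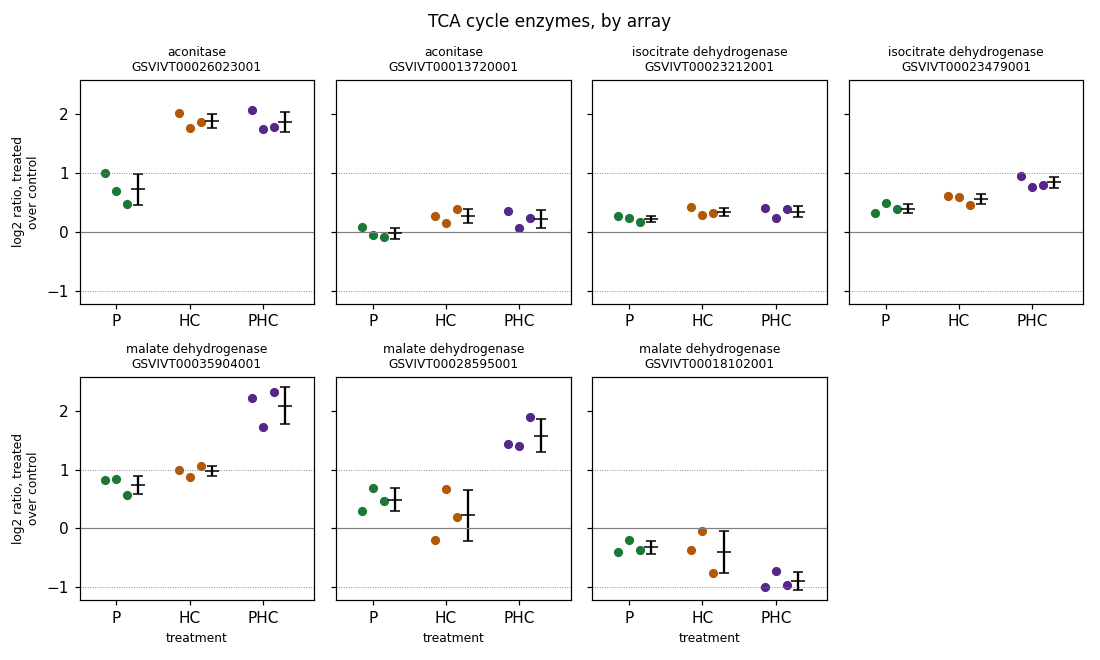
Log2 ratio of treated over control signal (vertical axes) by treatment for 2 aconitases, 2 isocitrate dehydrogenases and 3 malate dehydrogenases. Points are single arrays, bars the mean ± SD of 3 arrays, and dotted lines mark 2-fold. The aconitase GSVIVT00026023001 has HC and PHC arrays between 1.75 and 2.06, and the mitochondrial malate dehydrogenase GSVIVT00035904001 has PHC arrays between 1.73 and 2.32 above HC arrays of 0.88 to 1.06.

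The 5 genes matched by wording perform other reactions. An allyl alcohol dehydrogenase, GSVIVT00004110001, rose after PHC by 1.61 ± 0.19 (adjusted p = 1.01e-05), with values of 1.43, 1.60 and 1.81 after PHC, 0.78, 1.05 and 0.95 after P and 0.68, 0.52 and 0.49 after HC. A cinnamyl-alcohol dehydrogenase, GSVIVT00024587001, a type of enzyme that makes lignin precursors, had means of 0.00, 0.57 and 0.56 after P, HC and PHC. The 3-isopropylmalate dehydrogenase GSVIVT00026591001, an enzyme of leucine synthesis, had values of 0.13, 0.38 and 0.28 after P, −0.73, −0.40 and −0.52 after HC and 1.14, 0.68 and 1.08 after PHC. Its HC arrays were all below 0 while its PHC arrays were all above.

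The 2-phosphoglycerate kinase-related genes moved apart. GSVIVT00007071001 fell after PHC by 1.28 ± 0.07 (adjusted p = 2.01e-05), with HC values of −0.65, −0.81 and −0.98 and P values of −0.40, −0.55 and −0.28, and had a PHC value of −0.59 with median centring, not called. GSVIVT00022203001 had values of 0.75, 0.34 and 0.31 after P, −0.22, −0.53 and −1.33 after HC and 0.72, 0.07 and 0.50 after PHC. Only its HC arrays were below 0.

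The comparison of PHC with P asks what hydrogen cyanamide added on pruned canes. In it, 4 of the 35 enzymes were higher and 0 lower, with 4.85% and 4.82% over all probes. The pyruvate kinase GSVIVT00024850001 was higher by 2.38 (95% interval 1.22 to 3.55; adjusted p = 0.0128), a value that was 1.00 and not called with normexp and loess. The other 3 were grouped under the TCA cycle by enzyme name, although 1 of them is described as cytosolic. They were the aconitase GSVIVT00026023001 by 1.14 (0.74 to 1.55), the mitochondrial malate dehydrogenase GSVIVT00035904001 by 1.34 (0.92 to 1.77) and the cytosolic GSVIVT00028595001 by 1.09 (0.53 to 1.65), with adjusted p of 0.00424, 0.00296 and 0.0156. The last was not called without either P replicate 1 (1.00) or P replicate 3 (1.08), nor without PHC replicate 3 (0.93). With median centring, 10 were higher, where 8.19% of all probes were. At an unadjusted p from limma under 0.05, 5 enzymes were lower, in place of the 0 called, where 17.8% of all probes were. The PHC arrays lay wholly above the P arrays for 22 enzymes and wholly below for 6, where 22.6% and 25.5% of all probes did so.

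The comparison of PHC with HC asks what pruning added to the spray, and 7 enzymes were higher and 1 lower, with 8.55% and 5.33% over all probes. Higher were the malate dehydrogenases GSVIVT00028595001 by 1.35 (95% interval 0.79 to 1.92) and GSVIVT00035904001 by 1.11 (0.69 to 1.54), the alcohol dehydrogenase GSVIVT00013864001 by 1.09 (0.64 to 1.54) and the mutase family member GSVIVT00022081001 by 1.63 (0.72 to 2.54). The wording matches GSVIVT00004110001, GSVIVT00026591001 and GSVIVT00022203001 were higher by 1.05, 1.52 and 1.12. Lower was the pyruvate kinase family protein GSVIVT00006511001, at −1.42 (−1.80 to −1.04; adjusted p = 0.00134), a value of −0.94 and not called with median centring.

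Most of these higher calls were lost without PHC replicate 3. Without that array 2 enzymes were still called higher than HC, where 6.14% of all probes were. No longer called were GSVIVT00035904001 (1.00), GSVIVT00013864001 (0.99) and GSVIVT00004110001 (0.95), which passed the adjusted p but lay just under 2-fold. GSVIVT00022081001 (1.48) and GSVIVT00022203001 (1.09) did not pass the adjusted p. GSVIVT00013864001 was also lost without HC replicate 3 (0.95), GSVIVT00022081001 without HC replicate 1 (1.47), and GSVIVT00022203001 without HC replicate 3 (0.80) or PHC replicate 1 (0.98). With normexp and loess GSVIVT00022081001 (0.74) and GSVIVT00022203001 (0.91) were not called, and with median centring GSVIVT00022081001 (0.69) was not. For the aconitase GSVIVT00026023001 the difference was −0.02 with an interval of −0.43 to 0.39, and for the pyruvate kinase GSVIVT00024850001 it was −1.01 with an interval of −2.18 to 0.15, which spans both no difference and a large one. The PHC arrays lay wholly above the HC arrays for 16 enzymes and wholly below for 3, where 20.9% and 19.7% of all probes did so.

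Between the single treatments, 3 enzymes were higher after HC than after P and 1 was lower, with 3.35% and 3.13% over all probes. The pyruvate kinase GSVIVT00024850001 was higher by 3.40 (95% interval 2.23 to 4.56; adjusted p = 0.00508), or by 1.46 and still called with normexp and loess. The aconitase GSVIVT00026023001 was higher by 1.16 (0.76 to 1.57; adjusted p = 0.00553) and the pyruvate decarboxylase family gene GSVIVT00006281001 by 1.14 (0.66 to 1.62; adjusted p = 0.0116). The latter was not called without P replicate 3 (1.13) or HC replicate 2 (0.93), and with median centring neither it (0.90) nor the aconitase (0.95) was. Lower was GSVIVT00022203001, at −1.16 (−1.84 to −0.47; adjusted p = 0.0429), a call lost without any 1 of 7 arrays (−1.24 to −0.84).

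**Figure D4:**
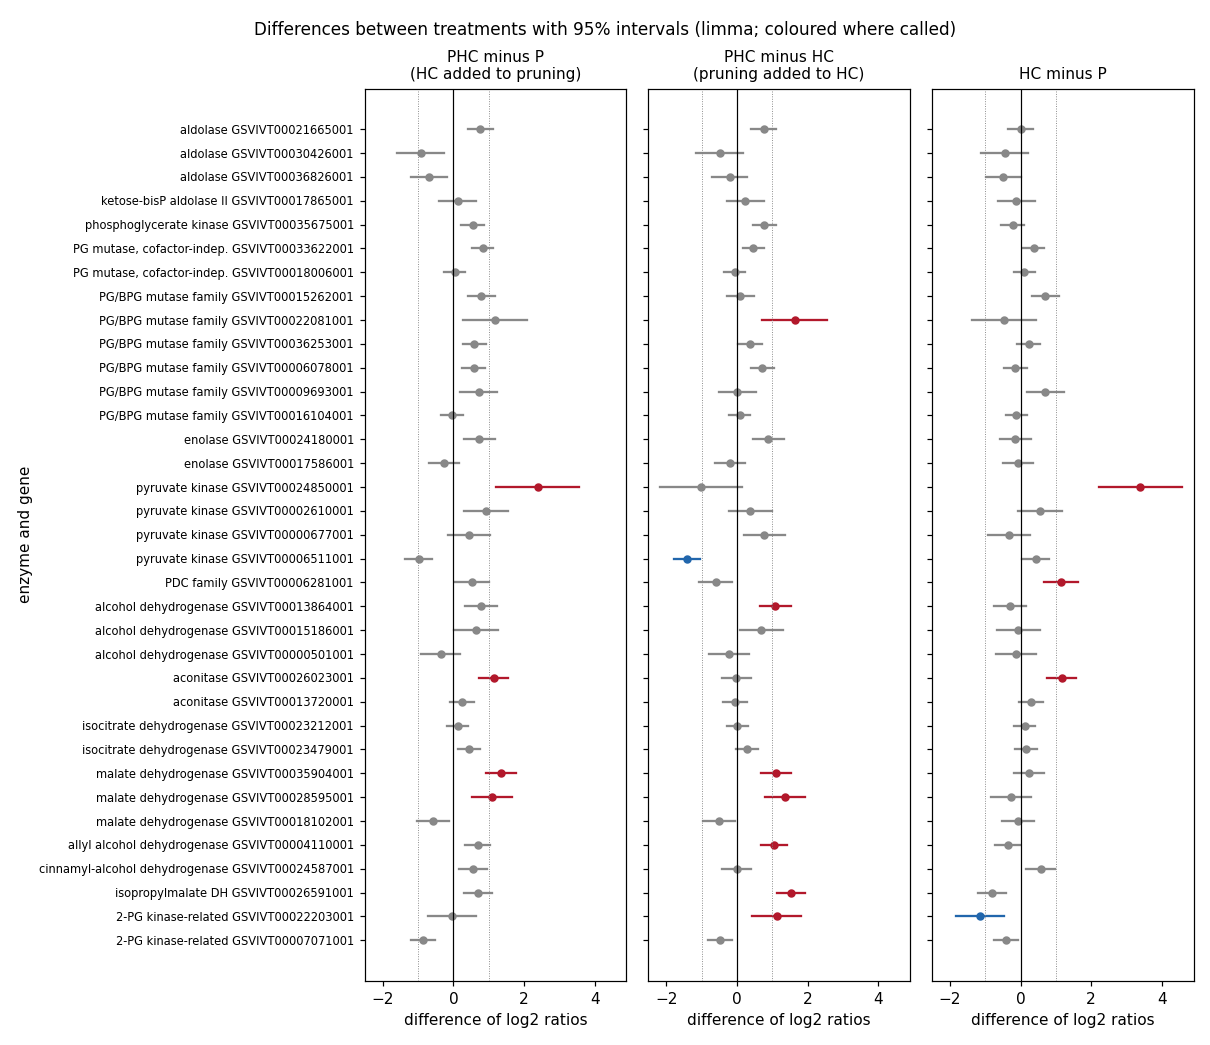
Differences of log2 ratios between treatments (horizontal axes, the same scale in each panel) for the 35 enzymes (rows), with 95% intervals from the fit. Red points were called higher and blue points lower, grey points were not called, and dotted lines mark 2-fold. The pyruvate kinase GSVIVT00024850001 has the widest intervals, from 2.23 to 4.56 for HC minus P and from −2.18 to 0.15 for PHC minus HC.

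Neighbouring routes were described by further word lists. Among 26 tested entries of the respiratory chain and ATP synthase, 12 rose and 1 fell after PHC, where 13.5% and 11.7% of all probes did. After P or HC 0 of them changed. Of all probes, 2.75% rose and 0.572% fell after P, and 5.16% and 4.75% after HC. The medians of the list were 0.24, 0.34 and 0.76 after P, HC and PHC. The paper reports higher expression of the alternative oxidase VvAOX2 after HC and PHC. This list holds only genes with a matching description, so it does not cover every respiratory gene. The list also matched 5 vacuolar ATP synthase entries, and without them 11 of 21 rose. Examples were cytochrome c1, which passes electrons within complex III (GSVIVT00020558001, 1.94), and the beta chain of mitochondrial ATP synthase (GSVIVT00030440001, 1.53). The entry that fell was a cytochrome c biogenesis protein (GSVIVT00036435001, −1.09).

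Among 18 other entries of central metabolism, 5 rose and 1 fell after PHC, where 13.5% and 11.7% of all probes did. After HC 1 fell, where 4.75% of all probes did, and 0 changed after P, where 2.75% of all probes rose and 0.572% fell. Of the 18, 4 were oxygenases and 2 semialdehyde dehydrogenases matched by wording, and 1 of each kind was among the entries that rose after PHC. The entry that fell after PHC was described as a 2-oxoglutarate decarboxylase and hydro-lyase (GSVIVT00021178001, −1.26). Both subunits of succinyl-CoA ligase, the TCA cycle step that yields a nucleoside triphosphate, rose after PHC, the beta chain GSVIVT00028552001 by 1.58 and the alpha chain GSVIVT00031891001 by 1.18. An L-lactate dehydrogenase, GSVIVT00009618001, the enzyme of lactate fermentation, rose by 1.69. The entry that fell after HC was a fructose-1,6-bisphosphatase (GSVIVT00021434001, −1.38), an enzyme of gluconeogenesis and the Calvin cycle. Of 10 entries of the pentose phosphate route, 2 rose after PHC, 1 after HC and 0 after P, where 13.5%, 5.16% and 2.75% of all probes did. The gene called after both was a 6-phosphogluconate dehydrogenase (GSVIVT00021207001), at 1.22 and 1.21 respectively. Of 10 entries for sucrose and starch breakdown, 2 rose and 1 fell after PHC, where 13.5% and 11.7% of all probes did. After P 2 rose and after HC 1, where 2.75% and 5.16% of all probes did. Of the 10, 4 were inhibitors of invertase or pectin methylesterase and 1 an aspartate transcarbamylase. All entries that rose after P or HC, and 1 of the 2 after PHC, were such inhibitors. No entry was described as a sucrose synthase or an amylase, so those enzymes were not assessed here. The paper reports a sucrose synthase gene as raised by all treatments. The entry that fell was a glucan phosphorylase (GSVIVT00021049001, −1.47), which releases glucose phosphate from starch.

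**Figure D5:**
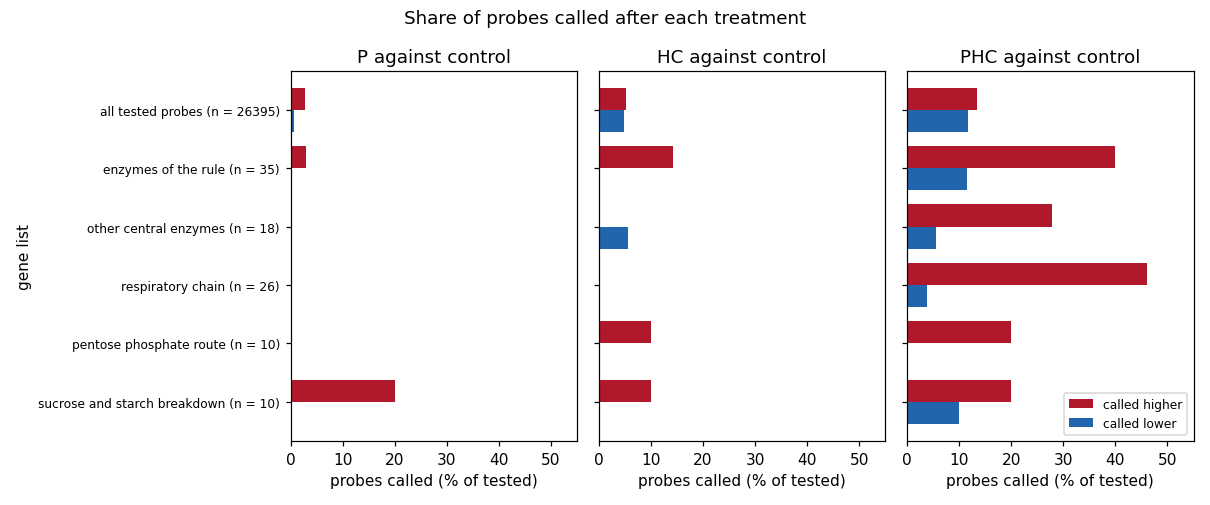
Share of tested probes called higher (red) and lower (blue), in percent on an axis from 0, for all probes, the enzymes described here and 4 neighbouring word lists, after P, HC and PHC. After PHC the share called higher was 13.5% over all probes, 40% among the enzymes and 46.2% in the respiratory chain list, and lists of 10 entries move by 10% per gene.

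Word lists for other cell types or states that a bud could hold gave the following values. Of 6 green tissue entries, such as chlorophyll-binding and photosystem proteins, 0 changed after P or PHC. Of all probes, 2.75% rose and 0.572% fell after P, and 13.5% and 11.7% after PHC. After HC 1 fell, where 4.75% of all probes did. The log2 ratio of their summed signals was −0.14 to 0.00 on the P arrays, −0.34 to 0.23 on the HC arrays and −0.08 to 0.04 on the PHC arrays. The median log2 ratio of the 6 was −0.12 (P), −0.36 (HC) and −0.17 (PHC). Of 18 entries for dividing cells, 3 rose with PHC, 1 with P and 0 with HC, where 13.5%, 2.75% and 5.16% of all probes did, and 1 of the 3 was a ribosome recycling factor matched by wording. The summed signals of this list had log2 ratios of 0.52 to 0.80 (P), 0.20 to 0.71 (HC) and 0.55 to 0.65 (PHC). The median log2 ratio of its entries was 0.14 (P), 0.12 (HC) and 0.52 (PHC), so sums and medians ranked the treatments differently. Of 21 tested entries for a dormant or embryo-like state, P raised 2 and lowered 2, HC raised 2 and lowered 1, and PHC raised 4 and lowered 6. Of all probes, P raised 2.75% and lowered 0.572%, HC raised 5.16% and lowered 4.75%, and PHC raised 13.5% and lowered 11.7%. Of the 21, 10 belong to the protease inhibitor, seed storage and lipid transfer protein family, which held all those raised by P and HC and 3 of the 4 raised by PHC, and among the other 11, late embryogenesis abundant proteins and oleosins, PHC raised 1 and lowered 5. The summed signals of all 21 entries had log2 ratios of 0.12 to 0.41 (P), −0.04 to 0.38 (HC) and 0.14 to 0.60 (PHC). The median log2 ratio of the 21 was 0.00 (P), −0.06 (HC) and −0.16 (PHC). The list for lignifying xylem matched 0 probes. The part of such cells in the changes of the enzymes was not tested.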

How the data were processed

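The authors hybridised treated (Cy5) and control (Cy3) RNA to 9 custom arrays with 30128 grapevine probes and extracted the signals with Agilent Feature Extraction 10.5. The deposited intensity values are linear signals per spot and channel, as mean, background and background-subtracted, dye-normalized signals. The deposited log2 value of a probe is treated over control signal after background subtraction and rank-consistent LOWESS. The p-value column of the authors' software was not used. The number of arrays limits precision.

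Spots marked as outliers were left out (81 values, 0 among the enzymes). A probe was tested if at least 1 treatment had it well above background on each of its 3 arrays, in Cy5 or in Cy3, which left out 3733 and kept 26395. One fit with limma 3.58.1 in R 4.3.3 (with the packages data.table, 1.17.8, and jsonlite, 2.0.0) estimated the mean of every treatment from all 9 arrays with 6 residual and 2.74 prior degrees of freedom, and Benjamini-Hochberg adjustment ran over all tested probes within each comparison. Errors are SDs over 3 arrays and intervals are at 95%. The fit was tested on simulated data. The labels call the arrays biological replicates.

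Named by rule were all fermentation genes, for each treatment and difference the largest called changes, and a member of every step without one. The remaining members were added so that all 35 are given. The enzymes and lists were chosen with earlier results of these data known, and genes of neighbouring lists were named after their values were seen. Alternatives were normexp background correction (offset 50) followed by loess or by median centring, the values of the series matrix, other filters and thresholds, a replicate block, and leaving out single arrays. Figures were drawn with Python and matplotlib.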

Additional observations from a re-analysis of the deposited data

Results flagged for a closer look

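The values of 3 enzymes stood out because the effect of hydrogen cyanamide on pruned canes (PHC minus P) differed from its effect on unpruned canes (HC minus control). This difference was added after the data were seen, and it contains the control ratio, so a dye effect of a probe does not cancel in it. Of the 35 enzymes, 1 was called higher and 2 lower, where 1.54% and 1.52% of all probes were. The mutase family member GSVIVT00015262001 differed by −1.48 (95% interval −1.95 to −1.02; limma, adjusted p = 0.0221), the pyruvate kinase family protein GSVIVT00006511001 by −1.12 (−1.58 to −0.65; adjusted p = 0.035) and the 3-isopropylmalate dehydrogenase GSVIVT00026591001 by 1.25 (0.77 to 1.74; adjusted p = 0.0323). With median centring none of the 3 was called (−1.06, −0.99 and 1.34). They were also lost in 5, 6 and 6 of the 9 fits without a single array. In those fits the values were −1.58 to −1.44, −1.13 to −1.02 and 1.16 to 1.31. Few probes of any kind were called there. Without P replicate 2, P replicate 3, HC replicate 1 or PHC replicate 1, 0% of all probes were called either way. Without PHC replicate 3, 0% were called higher and 0.00379% lower, and without P replicate 1, 0.106% and 0.239%.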

How the results depend on the processing

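Of 43 calls of single enzymes, 22 held under all alternatives, 21 were lost under at least 1 and 0 reversed. Normexp with loess lost 7, median centring 14 and leaving out an array 14. Median centring, which like loess was run after normexp, centred each array on all 30128 probes, including those too dim to be tested. The median of the 26395 tested probes was then 0.10 after P and 0.16 after PHC. That of the enzymes was 0.55 (P), 0.48 (HC) and 1.37 (PHC). The counts became, each with the share of all probes, 5 higher after P (3.32%), 0 lower after PHC (2.83%), 10 higher for PHC minus P (8.19%), 11 higher and 0 lower for PHC minus HC (13.1 and 1.6%), 1 higher and 0 lower for HC minus P (2.61 and 1.91%), and 0 either way for the departure from additivity (0.375 and 0.235%). For HC minus P, normexp with loess and testing all probes without a filter left 0 lower, and the latter gave a median of 0.25 after P. Without the 2-fold limit 12 were higher and 1 lower after P (7.16 and 4.94% of all probes), 15 and 5 after HC (14.4 and 19.4%), 23 and 6 after PHC (26.5 and 29.1%), 16 and 2 for PHC minus P (10.3 and 11.5%), 12 and 2 for PHC minus HC (15.5 and 13.1%), and 2 lower for HC minus P (5.76%). The causes were not tested.

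With each array left out in turn, counts are given with the range of the share of all probes. Higher counts ran from 1 to 3 after P (0.788 to 3.01%), 5 to 6 after HC (4.93 to 6.35%) and 14 to 16 after PHC (12.3 to 14.1%). They ran from 3 to 6 for PHC minus P (2.89 to 5.35%), 2 to 7 for PHC minus HC (6.14 to 10.4%) and 2 to 3 for HC minus P (2.41 to 4.13%). For the departure from additivity they ran from 0 to 2 (0 to 3.49%). Lower counts were 0 after P (0.182 to 0.599%), 0 to 1 after HC (4.22 to 7.07%) and 3 to 4 after PHC (10.4 to 12.9%). They were 0 to 1 for PHC minus P (3.22 to 5.36%), 1 for PHC minus HC (3.83 to 7.16%) and 0 to 1 for HC minus P (1.58 to 4.98%). For the departure they were 0 to 2 (0 to 2.72%). The medians were 0.26 to 0.33 after P, 0.27 to 0.36 after HC and 0.86 to 0.92 after PHC.

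The methods describe 3 randomized blocks of canes, and the labels do not say that a replicate number stands for a block. With a replicate block, 5 in place of 4 were higher for PHC minus P, the added one being GSVIVT00022081001 (1.17, limma adjusted p = 0.0197), and no other count changed. Deviations of same-numbered arrays correlated at over 0.1 in 8 of 9 pairs but not in the other (0.00285 to 0.628), so the numbers were not taken as pairs, although all 9 arrays were closest to an array of their own number. A block for the slide was not run, since no slide was given in the sources used here. Low control signal limits GSVIVT00024850001 and GSVIVT00022081001.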
